A study of Mus musculus with 12 samples.

Results

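The genotype by day interaction asks whether the difference between control and dMF1/2 dermal papilla (DP) cells at postnatal day 16 (P16) is the same as the difference already present at P14. The comparison uses all 12 libraries of the 2 days that were analysed here, 3 in each of 4 groups, and covers 13415 genes out of 14986 that both days share. In each day the genotype gap of a gene is the log2 ratio of dMF1/2 over control, and the interaction is the P16 gap minus the P14 gap, so that a positive value means that dMF1/2 cells gained transcript relative to control cells between the days. The comparison takes every library of the 4 groups, and genes entered it by their mean level over the 12 libraries. Many of the genes described below were picked for a small p of the interaction itself, so their values are a description.

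The DP is a cluster of mesenchymal cells at the base of the hair follicle that instructs the overlying matrix keratinocytes while the follicle grows (anagen), before the follicle regresses (catagen). R-spondins are secreted proteins that amplify Wnt signaling: they bind LGR receptors and remove the ubiquitin ligases ZNRF3 and RNF43, which otherwise clear Wnt receptors from the cell surface. Secreted antagonists act in the opposite sense, some by binding Wnt ligands or the LRP co-receptors and some by modifying the ligand. Fgf receptors transmit their signal in large part through the ERK kinases, whose output includes feedback genes such as the Dusp phosphatases and the Etv transcription factors.

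The dMF1/2 mice carried Cor-cre on 1 allele and were homozygous for the floxed alleles of both Fgfr1 and Fgfr2. The controls are labelled wild type, and the study's methods describe them as mice that either carried Cor-cre with 1 floxed copy of each receptor or had floxed alleles without Cre. Cor-cre is driven by the regulatory sequence of Corin and acts in the DP after birth, and a Cre-dependent YFP reporter in control and mutant mice marked the cells for 2 rounds of sorting from dorsal skin, at P14 and at P16. The sort relies on the same Cre that deletes the receptors. Of the control genotypes, only that with Cor-cre and 1 floxed copy of each receptor could therefore give sorted cells. In such controls Cre can delete 1 copy of each receptor too. The labels do not name the control genotype, and nothing in them ties a library to a named animal or litter.

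Library size ranged from 19302358 to 29860750 reads in genes. The P14 libraries numbered 1, 1 of each genotype, stood apart: Col1a1, Col1a2 and Col3a1 took 17.7% and 21.0% of their reads, against 27.2% to 36.1% in the other 10 libraries. Within a day, control and dMF1/2 libraries with the same number deviated together, so that each day holds 3 pairs: across genes, the 3 correlations of their deviations lay between 0.288 and 0.573 at P14 and between 0.266 and 0.319 at P16. Reads counted over whole genes gave an incomplete check of the deletion. Fgfr1 had 10108, 7855 and 9046 rescaled reads in P14 control libraries and 7510, 6451 and 6460 in P14 dMF1/2 libraries, and 12337, 8370 and 9818 against 7837, 6121 and 7410 at P16. Its gap was -0.40 at P14 and -0.50 at P16, with an interaction of -0.10 (SE 0.22). Fgfr2 had gaps of -0.11 and -0.02 and an interaction of 0.09 (SE 0.20), so its gene-level count did not show the deletion on either day, and the signs of both interactions turned when certain single libraries were left out. Floxed alleles remove part of a gene, and reads from the remaining exons are counted too.

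Markers of the DP did not keep the same level in the 4 groups. The summed level of 11 DP markers (all in the tables, among them Corin, Alx4, Sox2 and Vcan) ranged from 3000 to 6310 CPM (reads scaled to the size of the library) in P14 control libraries and from 2880 to 6120 in P14 dMF1/2 libraries. At P16 it ranged from 1160 to 2350 CPM in control and from 2840 to 4360 in dMF1/2 libraries, and these ranges did not overlap. The log2 difference of the pairs was -0.04, -0.41 and 0.17 at P14 and 1.30, 0.40 and 1.04 at P16. In bulk RNA, fewer cells of a type and less RNA per cell cannot be told apart, and this holds for every marker list here. Markers of other mesenchymal cells were present at substantial levels. The summed level of 5 dermal fibroblast markers was 2060 to 3950 CPM over the 12 libraries, and in P16 control libraries (2970 to 3920 CPM) it was above that of the DP markers. The 4 dermal sheath markers summed to 435 to 1400 CPM and the 2 pericyte markers to 213 to 417 CPM. Markers of non-mesenchymal cells were lower: keratinocyte markers summed to 4.42 to 29.5 CPM, with Krt85 absent from the tables, melanocyte markers to 1.59 to 3.70 CPM, immune markers to 8.31 to 17.1 CPM, with Cd3e absent, and Schwann cell markers to 1.78 to 20.5 CPM. The mean pair difference of the DP markers was 1.01 higher at P16 than at P14 on the log2 scale. For keratinocyte markers this value was 1.38, in the same direction, for Schwann cell markers -1.29, for pericyte markers -0.40, for dermal sheath markers -0.17 and for dermal fibroblast markers -0.04. The part of these shifts in the gene values was not tested.

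No gene passed an adjusted p of 0.05 for the interaction in limma without a replicate block, which is 0.0% of the genes tested, and the smallest adjusted p was 0.342. At an unadjusted p under 0.05 there were 379 genes with a positive interaction, 2.83% of those tested, and 269 with a negative one, 2.01%. Together these are 648 genes, or 4.83%, about what the threshold itself admits. The edgeR quasi-likelihood test on recovered reads also called none (634 genes at an unadjusted p under 0.05), and limma-voom called none (603 genes). DESeq2 called 7 genes, 0.0522% of those given an adjusted p: Rspo2, Unc5c, Tagln3 and Rps18-ps3 with positive values, and Cdc42ep3, Mmp11 and Adrb3 with negative ones.

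The result depended on whether the pairs entered the fit. With the replicate block, limma gave 763 positive genes at an unadjusted p under 0.05, 5.69% of those tested, and 704 negative genes, 5.25%, but its smallest adjusted p was 0.0707 and no gene was called. The edgeR fit with this block also called none, with a smallest adjusted p of 0.0701. DESeq2 with the same block called 163 genes, 115 of them positive (0.874%) and 48 negative (0.365%), and these included all 7 that it called without the block. Leaving out 1 pair at a time took this number to between 34 and 318. Without the block, the spread between the libraries of a group holds the deviation that paired libraries share, while the block takes it out and leaves fewer degrees of freedom. The P16 pair differences (dMF1/2 minus control of the same number) lay wholly above the P14 pair differences in 7.65% of genes and wholly below them in 7.49%.

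**Figure D1:**
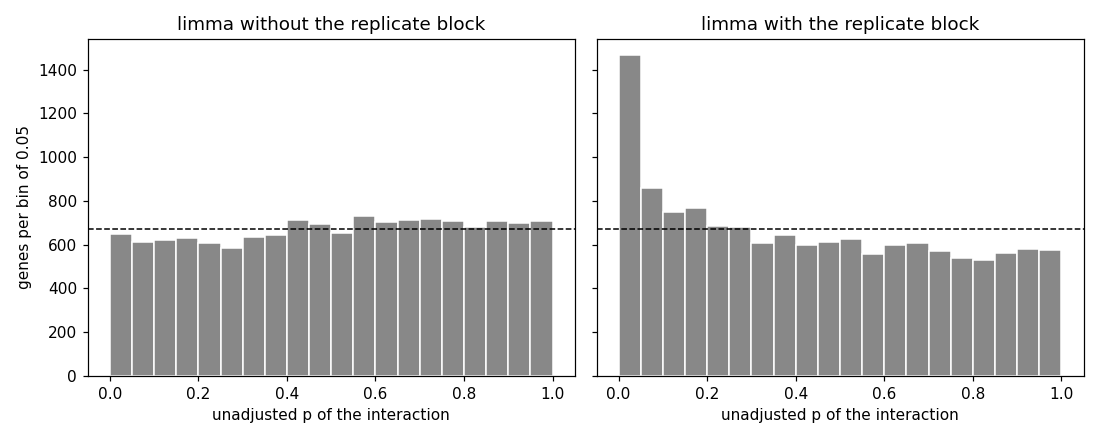
Histograms of the unadjusted p of the interaction over 13415 genes, in bins of 0.05, from limma without (left) and with (right) the replicate block; the dashed line is the height of an even spread. The lowest bin holds 648 genes on the left and 1467 on the right.

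Across genes the gaps of the 2 days were related (Pearson's r = 0.53 over 13415 genes, which share libraries within a day and are not independent). Of the 379 positive genes, 150 had a gap of the same sign that was wider at P16, 11 had a narrower one, and 218 had a gap of opposite sign on the 2 days. For the 269 negative genes these numbers were 129, 13 and 127. The change between days was the larger in control cells for 297 of the positive genes (78.4%) and for 194 of the negative ones (72.1%), against 58.9% of all genes tested. The median change from P14 to P16 of the positive genes was -0.77 in control and 0.08 in dMF1/2 cells, and that of the negative genes was 0.61 in control and -0.11 in dMF1/2 cells. These are descriptions of genes ranked on the same contrast, and they carry no test.

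**Figure D2:**
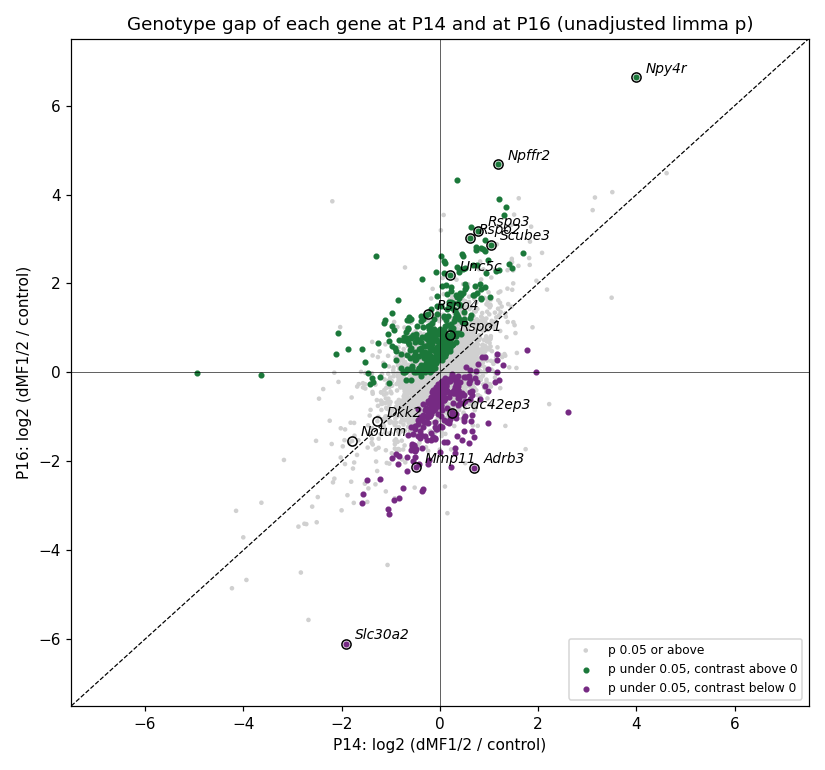
Genotype gap of 13415 genes at P14 (x axis, log2 of dMF1/2 over control) and at P16 (y axis, same unit), with a dashed line where both are equal; green and purple points are genes with an unadjusted p under 0.05 and an interaction above or below 0. Rspo2 and Rspo3 sit far above the line, with P16 gaps of 3.02 and 3.19, while Dkk2 and Notum sit near it in the lower left.

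R-spondin 2 and R-spondin 3 had the largest interactions among the ligands and antagonists of the Wnt pathway that the study plotted. Rspo2 (chromosome 15: 43020811 to 43170818, mm10) had 4063, 2485 and 2071 rescaled reads in P14 control libraries and 6265, 3458 and 3422 in P14 dMF1/2 libraries. At P16 it had 210.0, 535 and 541 in control libraries and 3002, 2664 and 4091 in dMF1/2 libraries. The genotypes overlapped at P14, and at P16 every dMF1/2 library was above every control library. The gap was 0.61 (SE 0.38) at P14 and 3.02 (SE 0.38) at P16, and the interaction of 2.41 (SE 0.54) amounts to a 5.32-fold change of the ratio. DESeq2 gave it an adjusted p of 0.0299 and limma one of 1.0, and the exact permutation test of 3 P16 against 3 P14 pair differences gave p = 0.1, the smallest this design allows.

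Rspo3 (chromosome 10: 29453109 to 29535867) had a similar pattern. Its rescaled reads were 8291, 5625 and 3809 in P14 control and 16119, 6329 and 8862 in P14 dMF1/2 libraries, and 467, 1260 and 1000 in P16 control and 6341, 7341 and 9645 in P16 dMF1/2 libraries. The P16 control libraries were the lowest of the 12, and the other groups overlapped. The gap was 0.78 (SE 0.41) at P14 and 3.19 (SE 0.41) at P16, which gave an interaction of 2.41 (SE 0.58). DESeq2's adjusted p was 0.0549 without the block and 0.000132 with it, and that of limma with the block was 0.0968. In control cells the level changed by -2.74 on the log2 scale between the days, and in dMF1/2 cells by -0.34.

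Rspo4 (chromosome 2: 151842927 to 151874668) had 29728, 22393 and 15468 reads in P14 control, 26278, 14087 and 16574 in P14 dMF1/2, 2599, 8911 and 7726 in P16 control, and 12570, 12240 and 17609 in P16 dMF1/2 libraries. The genotypes overlapped at P14 and were apart at P16. Its interaction was 1.56 (SE 0.59), or 1.0 without P16 control replicate 1, with an unadjusted p of 0.0231 in limma that became 1.0 after adjustment, and DESeq2 did not call it with the block (adjusted p = 0.0762). Rspo1 had the smallest interaction of the 4, 0.62 (SE 0.31), or 0.41 without the same library, with gaps of 0.21 at P14 and 0.83 at P16. Its P16 control libraries had 1200, 1955 and 1797 reads against 2545, 2699 and 3429 in dMF1/2 libraries.

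Lgr4, an R-spondin receptor, had more reads in dMF1/2 cells on both days. It had 2558, 2471 and 2115 reads in P14 control and 4438, 3151 and 3550 in P14 dMF1/2 libraries, and 1476, 1859 and 1779 against 3487, 3741 and 5446 at P16. The libraries of the 2 genotypes did not overlap at P14 or at P16, and the gap was 0.63 and then 1.29, an interaction of 0.66 (SE 0.25, unadjusted p = 0.0216 in limma). Among the R-spondins, their receptors and the 2 ligases, 8 of 9 genes were tested. Of these, 4 had an unadjusted p under 0.05 in the positive direction and none in the negative one, and the median interaction was 0.64, against -0.01 over all genes tested. Over all genes these shares were 2.83% and 2.01%. With the block 5 were positive and none negative, where 5.69% and 5.25% of all genes were. Rspo1, Rspo2, Rspo3 and Rspo4 in this list were chosen by the study on these samples. Of the other members tested, Lgr4 alone had an unadjusted p under 0.05, with or without the block.

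Dkk2 and Notum had lower levels in dMF1/2 than in control libraries on both days, with interactions near 0 on the log2 scale; whether they differ in this from the R-spondins was not tested. Dkk2 (chromosome 3: 132085292 to 132180304) encodes a ligand of the LRP co-receptors. It had 10714, 8319 and 14053 reads in P14 control and 4832, 3739 and 4930 in P14 dMF1/2 libraries, and 13033, 14666 and 14500 in P16 control and 8177, 4926 and 7032 in P16 dMF1/2 libraries. Every dMF1/2 library was below every control library on both days. The gap was -1.27 (SE 0.21) at P14 and -1.10 (SE 0.21) at P16, and the interaction was 0.17 (SE 0.30) on the log2 scale and -826 in rescaled reads, so its sign depends on the scale.

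Notum (chromosome 11: 120653788 to 120661175) encodes an enzyme that strips the lipid from Wnt ligands. Its reads were 7431, 3053 and 7368 in P14 control, 2341, 1070 and 1626 in P14 dMF1/2, 8919, 8004 and 10388 in P16 control and 5032, 1640 and 3641 in P16 dMF1/2 libraries. The genotypes did not overlap on either day, and control replicate 2 at P14 was the lowest control library. The gaps were -1.79 (SE 0.43) and -1.54 (SE 0.43), and the interaction was 0.24 (SE 0.61) on the log2 scale and -1394 in rescaled reads. A test of equality was not made: for both genes the SE leaves room for an interaction of either sign, and that of Notum ranged from -0.10 to 0.71 over single libraries left out.

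**Figure D3:**
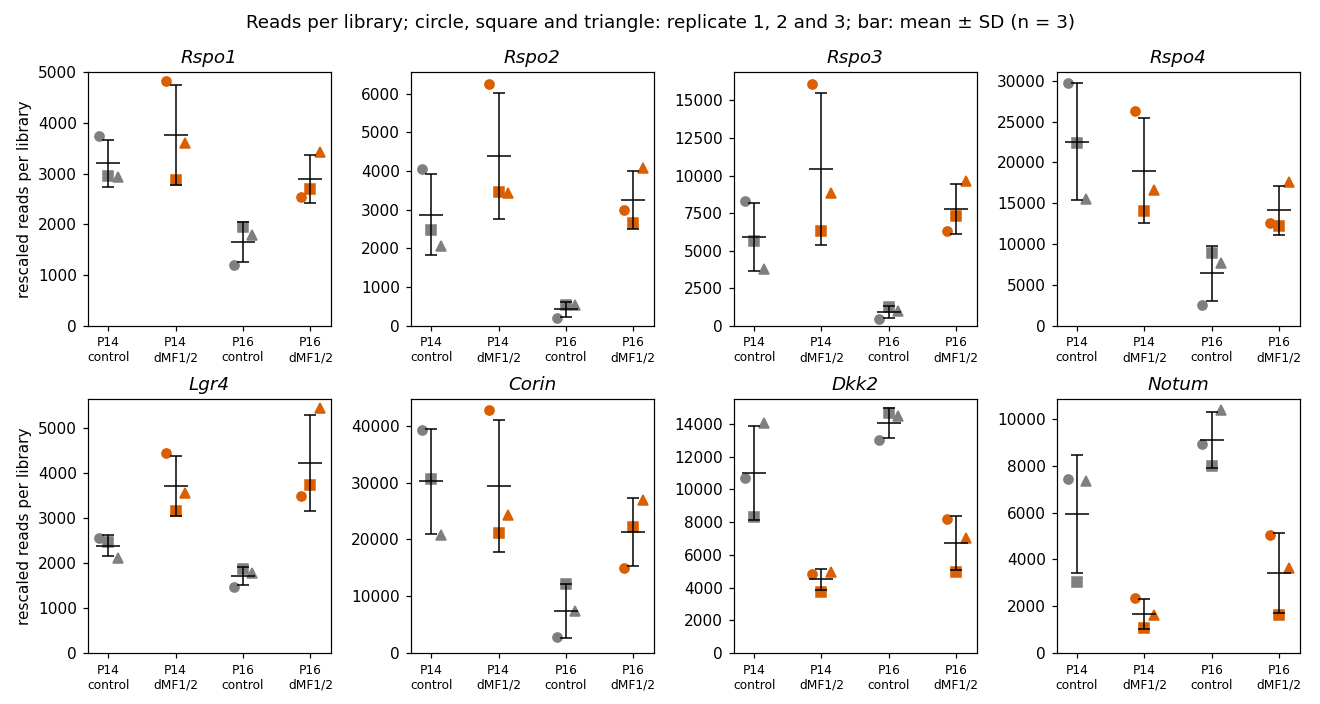
Rescaled reads per library (y axis, from 0) of 4 R-spondins, the receptor Lgr4, the DP gene Corin and the antagonists Dkk2 and Notum in the 4 groups (x axis); grey is control, orange is dMF1/2, symbols mark the replicate number, and bars show the mean ± SD of 3 libraries. Rspo2 and Rspo3 are lowest in P16 control libraries, whereas Dkk2 and Notum are lower in dMF1/2 libraries on both days.

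The promoters of an agonist whose gap opened, of an antagonist whose gap was there on both days, and of the 2 genes of smallest p are shown for comparison. They are the 250 bases before the annotated start, in the direction of the gene, from RefSeq on GRCm38.p6, and 4 of 7 genes looked for had an entry. The Rspo4 promoter lies at chr2:151842677-151842926 on the plus strand, that of Dkk2 at chr3:132085042-132085291 on the plus strand, that of Mmp11 at chr10:75932503-75932752 on the minus strand and that of Cdc42ep3 at chr17:79355092-79355341 on the minus strand. Capitals mark matches to a GC box (GGGCGG) or a TATA box (TATAAA), searched on both strands.
Rspo4: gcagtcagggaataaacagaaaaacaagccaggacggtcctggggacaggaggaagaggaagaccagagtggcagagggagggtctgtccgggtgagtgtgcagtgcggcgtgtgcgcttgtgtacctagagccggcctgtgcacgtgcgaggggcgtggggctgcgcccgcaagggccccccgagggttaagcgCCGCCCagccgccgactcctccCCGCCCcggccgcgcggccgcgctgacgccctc
Dkk2: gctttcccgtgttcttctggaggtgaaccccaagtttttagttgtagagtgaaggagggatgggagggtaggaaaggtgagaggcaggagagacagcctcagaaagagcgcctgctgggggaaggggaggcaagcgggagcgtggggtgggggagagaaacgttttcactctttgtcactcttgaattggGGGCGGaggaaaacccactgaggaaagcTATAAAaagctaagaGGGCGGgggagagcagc
Mmp11: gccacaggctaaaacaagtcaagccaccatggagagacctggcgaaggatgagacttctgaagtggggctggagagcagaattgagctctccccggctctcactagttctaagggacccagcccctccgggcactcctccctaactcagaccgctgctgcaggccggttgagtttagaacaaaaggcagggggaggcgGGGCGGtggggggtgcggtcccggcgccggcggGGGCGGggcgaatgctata
Cdc42ep3: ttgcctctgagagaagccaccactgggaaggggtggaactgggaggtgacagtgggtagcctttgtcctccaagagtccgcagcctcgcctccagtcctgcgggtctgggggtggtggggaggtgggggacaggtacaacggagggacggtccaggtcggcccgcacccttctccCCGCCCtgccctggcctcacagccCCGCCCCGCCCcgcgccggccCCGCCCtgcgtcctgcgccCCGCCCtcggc

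The GC box had 2 matches each in Rspo4, Dkk2 and Mmp11 and 5 in Cdc42ep3, where neighbouring matches overlap, and 32.7% of 32851 promoters of this length hold 1 or more. Dkk2 alone had a TATA box, which 12.4% of all promoters hold. None of the 4 held the TCF/LEF motif CTTTGA, which nuclear effectors of Wnt signaling recognise and 13.8% of promoters hold, or the AP-1 motif TGANTCA, which 6.75% hold. No match says only that these letters are not in these windows.

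Sostdc1, Sfrp2 and Sfrp1, which encode secreted Wnt antagonists, had positive interactions with an unadjusted p under 0.05. Sostdc1, which antagonises BMP and Wnt ligands, had 9802, 8739 and 6967 reads in P14 control and 13924, 9597 and 11717 in P14 dMF1/2 libraries, and 1192, 5165 and 4264 in P16 control and 12046, 13702 and 20308 in P16 dMF1/2 libraries. The P16 libraries did not overlap by genotype and those of P14 did, and the interaction was 1.87 (SE 0.62), or 1.21 without P16 control replicate 1. DESeq2 did not call it with the block (adjusted p = 0.0683). Sfrp2, which binds Wnt ligands, had 719, 1330 and 663 reads in P16 control libraries against 2808, 3323 and 3424 in dMF1/2 libraries, and 2343 to 7833 reads in the 6 P14 libraries. Its interaction was 1.37 (SE 0.48) and DESeq2 called it with the block (adjusted p = 4.56e-05) but not without (0.627). Sfrp1, of the same family, had an interaction of 1.48 (SE 0.59), or 0.91 without P16 control replicate 1, and was not called by DESeq2 with the block (0.188).

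Of 17 secreted antagonists and Kremen genes tested, 5 had an unadjusted p under 0.05, all positive, against 2.83% of all genes, and the list's median was 0.24, with 13 genes above 0 and 4 below and a range from 0.11 to 0.42 over single libraries left out. With the block 6 were positive and none negative, against 5.69% and 5.25% of all genes. Trabd2b, which encodes a protease of Wnt ligands, was among them, at 0.39. The 12 Wnt ligands had a median of -0.0022 with 1 negative gene, Wnt10b (-1.75), the 16 Frizzled, LRP and noncanonical receptors a median of 0.03 with 1 positive gene, Fzd1 (0.54), and the 31 genes of the β-catenin core and its nuclear factors a median of 0.08 with 1 positive gene, Apc2 (0.55). Planar polarity effectors had 2 positive genes of 17, Prickle2 (0.50) and Daam2 (0.71). Of all genes 2.83% were positive and 2.01% negative at this threshold. With the block the numbers of positive and negative genes were 1 and 2 for Wnt ligands and 3 and 1 for the Frizzled, LRP and noncanonical receptors. They were 5 and 1 for the β-catenin core and 3 and 1 for planar polarity effectors. The shares of all genes with the block were 5.69% and 5.25%.

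The genes with the smallest p in the whole comparison had negative interactions. Cdc42ep3, an effector of the Cdc42 GTPase on chromosome 17 (79334025 to 79355091), had 280.2, 278 and 318 reads in P14 control, 308, 403 and 339.8 in P14 dMF1/2, 495, 532 and 509 in P16 control, and 265, 313 and 236 in P16 dMF1/2 libraries. The P16 control libraries were higher than all the other 9, and at P14 the genotypes overlapped. Its interaction was -1.18 (SE 0.18), with DESeq2's adjusted p at 0.000118, edgeR's at 0.392 and limma's at 0.342.

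Mmp11 (chromosome 10: 75923222 to 75932502) encodes stromelysin 3, a matrix metalloproteinase of stromal cells. Its reads were 859, 755 and 941 in P14 control, 581, 659 and 569.7 in P14 dMF1/2, 3330, 2365 and 3026 in P16 control, and 902, 591 and 531 in P16 dMF1/2 libraries. The P16 control libraries stood above all the others, while dMF1/2 libraries of the 2 days overlapped. The gap widened from -0.49 (SE 0.19) to -2.13 (SE 0.19), and the interaction was -1.64 (SE 0.26). DESeq2's adjusted p was 0.000125, and that of limma was 0.342 with all libraries and 0.0299 without P16 dMF1/2 replicate 1.

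Unc5c, a receptor for netrins, was the positive gene of smallest p once genes averaging under 1 CPM were set aside. It had 1838, 2116 and 1238 reads in P14 control, 2662, 1717 and 1633 in P14 dMF1/2, 398, 758 and 336 in P16 control and 1997, 2304 and 2051 in P16 dMF1/2 libraries. As with Rspo3, the P16 control libraries were the lowest and the other groups overlapped. Its interaction was 1.97 (SE 0.41), and DESeq2 called it with an adjusted p of 0.0299.

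Scube3, a secreted protein with EGF-like and CUB domains, had 27645, 19573 and 12126 reads in P14 control and 56997, 28463 and 35229 in P14 dMF1/2 libraries, and 2567, 4164 and 3831 against 23815, 22559 and 29930 at P16. The genotypes were apart on both days. Its gap went from 1.04 (SE 0.32) to 2.87 (SE 0.32), an interaction of 1.83 (SE 0.45), with DESeq2's adjusted p at 0.0541 without the block and at 8.36e-11 with it.

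Rab38, a small GTPase known from melanosome traffic, had the smallest p in limma with the block. In the P14 pairs dMF1/2 differed from control by -0.62, -0.61 and -0.53, and in the P16 pairs by 1.41, 0.98 and 1.21, so that the sign was negative in each P14 pair and positive in each P16 pair. The interaction was 1.79 (SE 0.42), and the adjusted p was 0.107 by DESeq2, 0.0707 by limma with the block and 3.66e-05 by DESeq2 with the block. Scn4b, a sodium channel β subunit, had 1015 to 2656 reads in P14 control libraries and 237 to 681 in P16 control libraries, against 1848 to 3042 in P16 dMF1/2 libraries, and an interaction of 2.35 (SE 0.59) with DESeq2's adjusted p at 0.0549. Smaller positive values were those of Usp11, a deubiquitinase (0.76), and of Ccdc137 (0.59).

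Some top-ranked genes had few reads, and their values are less precise. Tagln3, a relative of transgelin, had 25.6 to 80.5 reads in P14 libraries, 6.88, 21.4 and 18 in P16 control and 43.3, 37.6 and 58.2 in P16 dMF1/2 libraries, and an interaction of 2.48 (SE 0.57) with an adjusted p of 0.0342 in DESeq2. Slc30a2, a zinc transporter, had 348, 85.7 and 193 reads in P16 control libraries and 2.11, 1.83 and 1.04 in P16 dMF1/2 libraries, 5 whole reads over the 3. At P14 it had 26.4, 4.35 and 53.4 in control and 4.26, 3.23 and 5.61 in dMF1/2 libraries, where the genotypes overlapped. Its interaction of -4.19 (SE 1.04) ranged from -4.91 without P14 control replicate 3 to -3.23 without P14 control replicate 2. Adrb3, the β3-adrenergic receptor, had 502 reads in P16 control replicate 1 and 91.8 and 111 in the other 2, against 33.0 to 43.6 in dMF1/2 libraries. Its interaction of -2.84 (SE 0.75) had an adjusted p of 0.0354 in DESeq2 and ranged from -3.30 to -2.08 over single libraries left out. The other negative genes of the top 10 were Pgm1 (-0.78), Gm4737 (-1.21), Vmn2r55 (-1.23), Rp9 (-0.47), the lysosomal adaptor Plekhm1 (-0.44) and the γ-secretase subunit Aph1b (-0.90). Vmn2r55 belongs to a large receptor family with closely similar members, and whether its reads could be told from theirs was not tested.

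**Figure D4:**
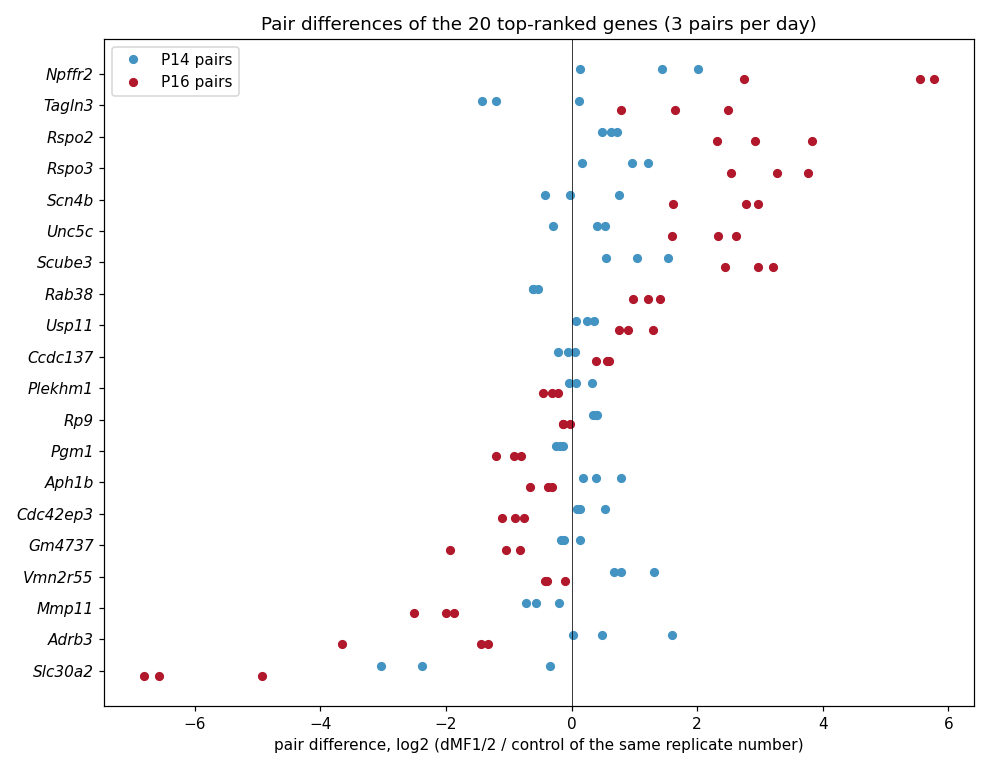
Pair differences (x axis, log2 of dMF1/2 over the control library of the same number and day) of the 10 positive and 10 negative genes of smallest unadjusted p with a mean of at least 1 CPM; blue points are the 3 P14 pairs and red points the 3 P16 pairs. The genes were ranked on this contrast, so the separation of colours is a description; for Rab38 and Cdc42ep3, all P14 pairs lie on 1 side of 0 and all P16 pairs on the other.

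DP genes leaned towards positive interactions. Of the 32 genes of a DP list, all of them tested, 10 had a positive interaction with an unadjusted p under 0.05 and none a negative one, and the median interaction was 0.52. The median gap of the list was 0.08 at P14 and 0.82 at P16, and its median change between days was -0.87 in control and -0.08 in dMF1/2 cells. The list includes Rspo1, Rspo3, Rspo4, Dkk2 and Notum, which the study chose on these samples. The positive share over all genes was 2.83%. With the block, 19 had an unadjusted p under 0.05, all positive, against 5.69% of all genes, and DESeq2 called 9, all positive, against 0.874%.

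Corin, a serine protease whose regulatory sequence drives the Cre, had 39219, 30624 and 20793 reads in P14 control and 42680, 21127 and 24262 in P14 dMF1/2 libraries, and 2736, 12145 and 7425 in P16 control and 14983, 22258 and 26844 in P16 dMF1/2 libraries. The genotypes overlapped at P14 and did not at P16, and P16 control replicate 1 was the lowest of the 12. Its interaction was 1.79 (SE 0.67), and DESeq2's adjusted p was 0.906 without the block and 0.0544 with it. Alx4, a homeobox factor of the DP, had an interaction of 1.36 (SE 0.45), with 3099, 5279 and 6098 reads in P16 control against 13584, 13293 and 18844 in P16 dMF1/2 libraries. DESeq2 called it with the block (1.03e-05) and not without (0.55). Ntng1, a netrin relative anchored to the membrane, stood at 0.90.

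Of 31 BMP pathway genes, 4 had an unadjusted p under 0.05, all positive, against 2.83% of all genes, and the median was 0.13. They were Sostdc1, described above, Nog, Bambi and Bmp6. With the block 8 were positive and none negative, against 5.69% and 5.25% of all genes. Nog, which encodes the BMP antagonist noggin, had 1914, 1249 and 1055 reads in P14 control and 2876, 1489 and 1324 in P14 dMF1/2 libraries, and 237, 475 and 468 in P16 control and 1009, 1191 and 1435 in P16 dMF1/2 libraries. The interaction was 1.29 (SE 0.48), called by DESeq2 with the block (2.24e-06) and not without (0.782). The pseudoreceptor Bambi stood at 0.94, and the ligand Bmp6 at 0.83 on the log2 scale but at -11.2 in rescaled reads.

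The 2 activin subunits took opposite directions. Inhbb, the βB subunit, had 834, 1106 and 1891 reads in P14 control and 747, 1048 and 792 in P14 dMF1/2 libraries, and 3532, 2119 and 3046 in P16 control and 1049, 694 and 805 in P16 dMF1/2 libraries, an interaction of -1.26 (SE 0.40). Inhba, the βA subunit, had an interaction of 1.26 (SE 0.54) and a level that changed by -1.23 in control and 0.03 in dMF1/2 cells. DESeq2 with the block called Inhbb (0.000329) and not Inhba (0.218).

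Genes close to the deleted pathway were looked at as ligands, receptors and ERK feedback genes. Fgf10, a ligand of FGFR2, had an interaction of 0.88 (SE 0.35) and was called by DESeq2 with the block only (0.00207). Fgf18 had 1400, 612 and 863 reads in P14 control and 542, 224 and 284 in P14 dMF1/2 libraries, and 269, 496 and 626 against 617, 293 and 453 at P16. The genotypes were apart at P14 and overlapped at P16, and its interaction of 1.46 (SE 0.59) came from a gap of -1.47 at P14 and -0.01 at P16. Fgf11, which is not secreted, stood at 0.62, and 3 of 13 FGF genes had an unadjusted p under 0.05, all positive, against 2.83% of all genes. With the block 4 were positive and 2 negative, against 5.69% and 5.25%, Fgf2 (-0.39, or -0.23 without P16 control replicate 1) and Fgf14 (-0.84), the latter named after its values were seen. The median of the list was 0.15, with 8 genes above 0 and 5 below, and it ran from -0.31 to 0.64 over single libraries left out and was 0.0031 without both P14 libraries numbered 1. Among FGF receptors and co-receptors 3 of 20 had an unadjusted p under 0.05 without the block, all positive, against 2.83% of all genes. They were the proteoglycans Gpc6 (0.87) and Sdc2 (0.36) and the adhesion protein Flrt3 (0.97). With the block 6 were positive and 1 negative, against 5.69% and 5.25% of all genes. DESeq2 with the block called 2 positive genes and 1 negative gene, against 0.874% and 0.365% over all genes.

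ERK feedback and target genes held 4 negative and no positive genes at this threshold among 22 tested, against 2.01% and 2.83% of all genes, with a median of -0.16 that ran from -0.23 to -0.02 over single libraries left out and was -0.11 without both P14 libraries numbered 1. Etv4 had 167, 91.3 and 208 reads in P14 control and 48.6, 65.7 and 44.9 in P14 dMF1/2 libraries, and 274, 194 and 214 against 41.2, 40.4 and 42.6 at P16. The genotypes were apart on both days, and the gap was -1.47 and then -2.41, an interaction of -0.94 (SE 0.38), or -0.60 without P14 control replicate 2. Dusp2, an ERK phosphatase, had 200.5, 112 and 224 reads in P16 control libraries against 42.2, 33.0 and 46.7 in dMF1/2 libraries, with overlap at P14, and an interaction of -1.63 (SE 0.57). Dusp7 stood at -0.63 and Epha2 at -0.75. With the block the list had 7 negative and 5 positive genes, against 5.25% and 5.69% of all genes. The 5 positive genes were Epha4 (0.84), Dusp4 (0.78), Spry4 (0.74), Spry1 (0.46) and Spred2 (0.37), named after their values were seen. Of the 22 genes tested 9 were above 0 and 13 below. DESeq2 with the block called 1 in each direction, against 0.874% positive and 0.365% negative over all genes. The median gap of the list was -0.41 at P14 and -0.44 at P16.

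The IGF pathway had 1 gene of 18 with an unadjusted p under 0.05, against 4.83% of all genes. This was Pappa2, a protease of IGF binding proteins. It had 12605, 11397 and 14235 reads in P14 control and 7341, 4089 and 5345 in P14 dMF1/2 libraries, and 38170, 22266 and 29149 against 6481, 4355 and 6054 at P16. Control and dMF1/2 libraries were apart on both days, and the gap was -1.22 at P14 and -2.39 at P16, an interaction of -1.17 (SE 0.34) that DESeq2 called with the block (2.22e-06) and not without (0.299). With the block 2 genes of the list were positive and 6 negative, against 5.69% and 5.25% of all genes. DESeq2 with the block called 1 in each direction, against 0.874% positive and 0.365% negative over all genes. These were Pappa2, and the ligand Igf2 (1.0, or 0.60 without P14 control replicate 1, adjusted p = 0.000132). Among signals to the hair matrix, Nrg2, a ligand of the ErbB receptors, stood at 2.08 (SE 0.69), and Hgf, hepatocyte growth factor, at -0.67 (SE 0.24).

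Neuropeptides and their receptors had a median interaction of 0.09 and no common direction. That median ran from -0.0429 to 0.145 over single libraries left out. Npffr2, a receptor of neuropeptide FF, had 229, 114 and 153 reads in P14 control and 251, 312 and 618 in P14 dMF1/2 libraries, and 12.1, 94.8 and 13 in P16 control and 711, 639.5 and 653 in P16 dMF1/2 libraries. The P16 genotypes were far apart, and P16 control replicate 2 was above the other 2 control libraries. Its interaction was 3.49 (SE 0.89), with an adjusted p of 1.0 in limma that passed the threshold, at 0.0280, without that library.

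Npy4r, which binds pancreatic polypeptide, had 81.2, 165 and 41.5 reads in P14 control and 1914, 1344 and 917 in P14 dMF1/2 libraries, and 5.16, 10.2 and 7.01 against 436, 1223 and 1031 at P16. The genotypes were far apart on both days, and the gap went from 4.0 to 6.64, an interaction of 2.65 (SE 0.70) on the log2 scale but of -406 in rescaled reads. Npy2r stood at 2.59 and the substance P receptor Tacr1 at -1.72, both with means under 3 CPM. In all, 23 of 56 listed genes were tested, 3 of them with a positive and 2 with a negative interaction at an unadjusted p under 0.05, against 2.83% and 2.01% of all genes, and 6 and 3 with the block, against 5.69% and 5.25%.

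Ion channel genes held 9 positive and 3 negative genes at this threshold of 96 tested, against 2.83% and 2.01% of all genes. Their median was 0.07 and ran from 0.00385 to 0.119 over single libraries left out. With the block they held 16 and 5, against 5.69% and 5.25%. Ranked by smallest unadjusted p, Scn4b led them, followed by the potassium channel genes Kcne4 (1.27), Kcnip4 (1.83) and Kcnd3 (1.03). Axon guidance genes held 6 positive and 3 negative genes of 62, against 2.83% and 2.01% of all genes, with a median of -0.0018. With the block they held 12 and 8, against 5.69% and 5.25%. The netrin receptors Unc5c and Unc5b had opposite signs, at 1.97 and -0.95, and the Eph receptor Ephb1 stood at 1.65.

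Genes of the extracellular matrix were mixed. Matrix proteases held 6 positive and 2 negative genes of 48, against 2.83% and 2.01% of all genes. With the block they held 9 and 8, against 5.69% and 5.25%. Mmp28 (1.38), Adamts13 (1.28) and Adamts18 (1.06) were opposite to Mmp11. Among 42 collagens 1 was positive, Col13a1 (1.31), and the median was -0.06, from -0.126 to 0.2 over single libraries left out. Lox, which crosslinks collagen, had 38900, 35199 and 32194 reads in P14 control and 23012, 20235 and 20873 in P14 dMF1/2 libraries, and 18697, 26052 and 22433 against 21914, 24393 and 20619 at P16. The genotypes were apart at P14 and overlapped at P16, and the interaction was 0.73 (SE 0.20), called by DESeq2 with the block (0.000587) but not without (0.142). Plod2, which hydroxylates collagen lysines, stood at 1.51. In the other direction stood the laminin chain Lama3 (-2.15), and Hapln1, which links hyaluronan to proteoglycans (-2.35, mean of 2.12 CPM). Of 43 integrin, laminin and basement membrane genes 31 were below 0 and 12 above, with 2 positive and 2 negative at this threshold. Of 25 hyaluronan and proteoglycan genes 21 were below 0 and 4 above, with none positive and 1 negative. With the block these numbers were 3 and 10, and 3 and 4, against 5.69% and 5.25% of all genes.

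Nuclear receptors and retinoid genes held 6 positive and 1 negative gene of 34, against 2.83% and 2.01% of all genes, although their median was -0.0030. With the block the numbers were 11 and 2, against 5.69% and 5.25%. Crabp2, which carries retinoic acid, had 143, 189 and 233 reads in P16 control and 472, 622 and 904 in P16 dMF1/2 libraries, with overlap at P14, and an interaction of 1.38 (SE 0.41). DESeq2 called it with the block (1.54e-05) and not without (0.328). The vitamin D receptor Vdr stood at -1.18 (SE 0.43), with 917, 426 and 509.7 reads in P16 control and 219.7, 138 and 169 in P16 dMF1/2 libraries. Lipid synthesis genes held 5 positive and 1 negative gene of 35, with or without the block. The shares of all genes were 2.83% and 2.01% without it and 5.69% and 5.25% with it. The desaturases Scd1 (0.81) and Scd2 (0.53) were opposite to the elongase Elovl6 (-1.08).

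Lists of other cell types and of housekeeping functions varied in this respect. The 13 endothelial genes had a median interaction of -0.96, which ran from -1.31 to -0.61 over single libraries left out, and 3 were negative at an unadjusted p under 0.05, against 2.01% of all genes: Eng (-0.40), Esam (-0.70) and Vwf (-0.88). DESeq2 called none of them with or without the block, and the summed level of 4 endothelial markers was 20.8 to 73.3 CPM over all libraries, with a mean pair difference that was 0.04 higher at P16 than at P14. Pericyte genes had a median of -0.40, from -0.53 to -0.22 over single libraries left out, with 1 negative gene of 9, Cspg4 (-1.21), and the contractile genes of the dermal sheath, none with an unadjusted p under 0.05 among 18, a median of -0.29 that ran from -0.64 to 0.08 over single libraries left out. With the block, 4 dermal sheath genes and 4 of 9 pericyte genes had an unadjusted p under 0.05, all negative, against 5.25% of all genes, and of the endothelial genes 5 were negative and 1 positive. The 10 skeletal muscle genes had a median of -0.48, with 9 below 0 and a range from -0.93 to -0.23 over single libraries left out, and the 6 adipocyte genes one of -0.32, with 5 below 0 and a range from -0.53 to -0.18. The adipocyte gene with an unadjusted p under 0.05 was the one above 0, Plin1 (1.74), which coats lipid droplets, and with the block 2 negative genes passed beside it, Fabp4 (-0.99) and Cd36 (-0.95), which ran from -1.29 to -0.55 and from -1.71 to -0.12 over single libraries left out. The mean pair difference of the summed adipocyte markers was 0.15 higher at P16 than at P14. The 25 immediate early and dissociation stress genes had a median of -0.28 with 1 negative gene, Klf6 (-0.74), and that median was -0.09 without both P14 libraries numbered 1. Of 16 keratinocyte genes none had an unadjusted p under 0.05 without the block. With the block 4 of them did, all positive, against 5.69% of all genes: Krt5 (1.49), Krt14 (1.54), Krt15 (1.41) and Krt17 (1.41). Krt5 had 208, 78.3 and 137 reads in P14 control and 120.2, 90.5 and 53.8 in P14 dMF1/2 libraries, and 84.3, 189 and 31.0 against 154, 166 and 116 at P16, so the genotypes overlapped on both days. The 83 ribosomal protein genes had a median of -0.02 and the 81 respiratory chain genes one of -0.03, each close to the median of all genes.

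**Figure D5:**
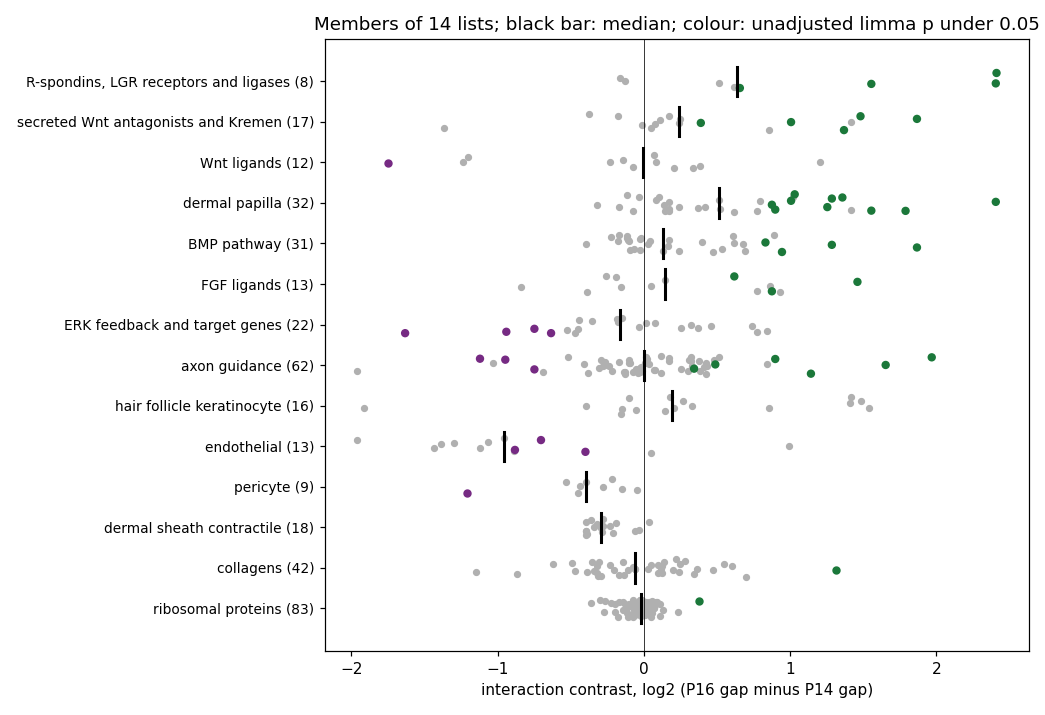
Interaction of each tested member (points) of 14 of the 48 lists, on the log2 scale (x axis, P16 gap minus P14 gap), with the number tested in parentheses; black bars are medians, and green and purple points have an unadjusted limma p under 0.05. The R-spondin and DP lists lie to the right, with medians of 0.64 and 0.52, the endothelial list lies to the left at -0.96, and ribosomal proteins centre near 0.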

How the data were processed

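RNA of sorted DP cells was sequenced in 12 libraries. Per the study's methods, ribosomal RNA was depleted, strand-specific libraries were made and single-end reads were sequenced, trimmed with Trimmomatic, mapped to mm10 with Tophat and counted per Ensembl gene with HTSeq-count. The authors deposited signal values, which are reads per gene divided by DESeq2 size factors, in a table for each day. The log2 fold changes, scores and p-values that the authors deposited beside them were not used. Each library column was divided by its smallest value above 0: 100.0% of values came out whole within 0.0001 reads. A median-of-ratios factor per library, taken over the 14986 genes of both tables, put all 12 libraries on 1 scale, and genes with a mean of at least 10 were fitted with limma 3.58.1 in R 4.3.3 on log2(rescaled reads + 1), with a mean-variance trend, 4 group means and Benjamini-Hochberg adjustment over 13415 genes. The fold changes are on that scale and understate low genes. edgeR 4.0.16 and DESeq2 1.42.0 were run on the recovered reads. On simulated data limma was tried with and without the replicate block, and edgeR and DESeq2 only without it. The fits of edgeR and DESeq2 with the block, and limma-voom, were not tried on simulated data. Same-numbered libraries of a day were taken as pairs because all 6 correlations of their deviations were above 0.1. Single genes also got an exact two-sided permutation test of pair differences, with a smallest p of 0.1. Per the study, each library was made from 1 mouse, so p-values measure the spread between mice; the labels do not say which mice are littermates.

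Genes were named by a rule: the receptors deleted and the genes whose reads the study plotted (8), the 10 of smallest unadjusted p in each direction with a mean of at least 1 CPM, those called by any tool without the block or by limma with it, and up to 4 of smallest p in each of 48 lists. The members and lists were chosen with earlier results of these data known. Some genes that this rule names are not reported here.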

Additional observations from a re-analysis of the deposited data

Results flagged for a closer look

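DESeq2 tested the difference between the genotype gaps of the 2 days and called 7 genes: Rspo2 (log2 interaction 2.31 in its fit), Unc5c (1.88), Tagln3 (2.50), Cdc42ep3 (-1.17), Mmp11 (-1.61), Adrb3 (-3.37) and Rps18-ps3 (7.23). limma and edgeR called none of them in all 12 libraries. The value of Rps18-ps3 is no measure of size, because its P14 dMF1/2 libraries and P14 control replicate 1 held 0 reads, and its other 8 libraries held 29.4 to 51.1 rescaled reads. It is named as a pseudogene of Rps18, and whether reads of the 2 can be told apart was not tested.

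In some named genes all 3 pair differences lay on one side of 0 at P14 and on the other at P16. Among all genes, 185 (1.38%) went from lower to higher in dMF1/2 in this way and 193 (1.44%) from higher to lower, and for each gene named here except Cdc42ep3 and Adrb3, which DESeq2 called, no fit without the replicate block that used all 12 libraries called the difference. From lower to higher went Rab38 (limma interaction 1.79), Plod2 (1.51), Mmp28 (1.38), Igf2 (1.0), Flrt3 (0.97), Gpc6 (0.87), Scd1 (0.81), Trabd2b (0.39) and Sdc2 (0.36). From higher to lower went Adrb3 (-2.84), Vmn2r55 (-1.23), Cdc42ep3 (-1.18), Aph1b (-0.90), Hgf (-0.67), Cox8a (-0.64) and Rp9 (-0.47). With 3 libraries a group, single libraries were not tested for standing apart from their group.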

How the results depend on the processing

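Without the replicate block, no gene was called under TMM, upper-quartile, deposited or collagen-free scaling, other pseudocounts, filters or transformations, array weights, edgeR or limma-voom, whereas DESeq2 called 7. Leaving out single libraries gave 0 to 2 called genes in limma: 2 (Rps18-ps3, and Gm10263, which was named after its values were seen) without P14 control replicate 1, 1 (Npffr2) without P16 control replicate 2 and 1 (Mmp11) without P16 dMF1/2 replicate 1, and 2 without both P14 libraries numbered 1. The positive genes at an unadjusted p under 0.05 then numbered 215 to 697 and the negative ones 197 to 442, with the extremes without P14 dMF1/2 replicates 2 and 1 and P14 control replicate 3, and array weights gave 623 and 454. The scalings shifted the median of all genes by less than 0.1. With the block, the unadjusted counts were 763 and 704 in limma, 747 and 710 in edgeR and 498 and 444 in DESeq2, which called 163. In all 12 libraries limma and edgeR with the block called none. Leaving out pairs 1, 2 and 3 of P14 and then of P16, DESeq2 with the block called 73, 44, 217, 68, 318 and 34 genes, and limma with the block 2, 0, 22, 1, 115 and 0. In these pair-wise fits limma's counts at an unadjusted p under 0.05 were, in the same order, 746, 545, 756, 556, 860 and 517 positive and 579, 521, 925, 506, 768 and 460 negative, and those of DESeq2 reached 605 positive and 491 negative without the P16 pair 2 and 637 negative without the P14 pair 3. The cause was not tested.

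Of 95 named genes followed through the alternatives, 4 near 0 turned sign when libraries were left out. Fgfr1 ran from -0.236 to 0.0438, Fgfr2 from -0.0478 to 0.234, Dkk2 from -0.0169 to 0.382 and Notum from -0.103 to 0.705 over single libraries. In the fits with the block and a pair left out, Fgfr2 stood at -0.0024 (limma without the P14 pair 2), -0.0297 and -0.0276 (DESeq2 and limma without the P16 pair 3), Dkk2 at -0.0421 and -0.0378 and Notum at -0.116 and -0.114 (DESeq2 and limma without the P16 pair 1). Without P16 control replicate 1 the interaction of Corin was 1.19, that of Nrg2 1.47, Npy2r 1.88, Ephb1 1.03, Kcnip4 1.24, Col13a1 0.84 and Adrb3 -2.08. Without P16 control replicate 2 Npffr2 stood at 4.43, Krt5 at 2.11 and Krt15 at 2.14, without P16 control replicate 3 Krt5 stood at 0.83 and Krt14 at 0.97, and without P14 control replicate 1 Krt17 stood at 0.92 and Fgf14 at -0.25. Over single libraries left out, the list medians ran from 0.38 to 0.78 for DP genes, 0.11 to 0.25 for planar polarity effectors, 0.10 to 0.28 for FGF receptors and co-receptors, 0.07 to 0.19 for the BMP pathway, and -0.48 to -0.12 for immediate early and stress genes. In rescaled reads instead of log2, 4 genes turned sign: Dkk2 (-826), Notum (-1394), Bmp6 (-11.2) and Npy4r (-406). The others of these 95 genes kept their direction in every alternative that gave a value, the block included. List medians moved by more than the SD of their pair medians in 167 values, most often when P14 libraries were left out. Depth limits genes near 1 CPM, such as Slc30a2 and Tagln3.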
